A study of Mus musculus with 54 samples.

Results

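Group 2 innate lymphoid cells (ILC2s) of the mouse small intestine were compared after 72 h and after 48 h of culture with IL-2 and IL-7 and without IL-25. The 8 libraries, 4 at each time, were taken by their labels and not by any measured value, out of 54 samples in the series, 40 of them RNA libraries. Both groups came from WT C57BL/6 mice aged 8 to 12 weeks, labelled as pooled male and female, and both were kept in IL-2 and IL-7 throughout, so by their labels the groups differed in culture time alone. The libraries were made with Smart-seq2, which copies whole transcripts from small amounts of RNA, and the values are TPM, a transcript share corrected for gene length. The question set by the design is how much the baseline of the culture itself moves between the last time points, against which the IL-25 arm is read.

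ILC2s are tissue-resident lymphocytes without antigen receptors that answer alarm signals from the epithelium with type 2 cytokines such as IL-5 and IL-13. IL-7 supports their survival and IL-2 their growth. IL-25, released in the gut by tuft cells, activates them through the receptor subunit IL-17RB and was absent from these cultures.

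Between 48 h and 72 h without IL-25 few genes changed. Of 10548 genes tested, 40 (0.379%) differed at an adjusted p under 0.05 (limma on log2(TPM + 1), Benjamini-Hochberg over all genes tested), 30 higher (0.284%) and 10 lower (0.0948%) at 72 h. Only 6 of the 40 (0.0569% of the genes tested) moved at least 2-fold on this scale. Id3, a transcriptional regulator that holds back E proteins, rose and was 1 of the 6, and genes of class I antigen presentation (B2m, H2-D1, H2-Q7), the chemokine receptor Ccr2 and the serotonin receptor Htr1b also rose. The genes that fell included the cytotoxic protease Gzma, the histone gene H2bc12, the receptor Cd160 and the adhesion molecule Epcam. None of the 12 genes central to ILC2 identity and to the study, among them Gata3, Il5, Il13 and Rxrg, passed the test. The split into 30 higher and 10 lower depended on the scaling of the libraries: it became 15 higher and 35 lower after rescaling by the median of ratios and 38 higher and 48 lower after quantile normalization. When the 8 libraries were fitted without the other culture groups, 1 gene, Id3, was called.

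**Figure D1:**
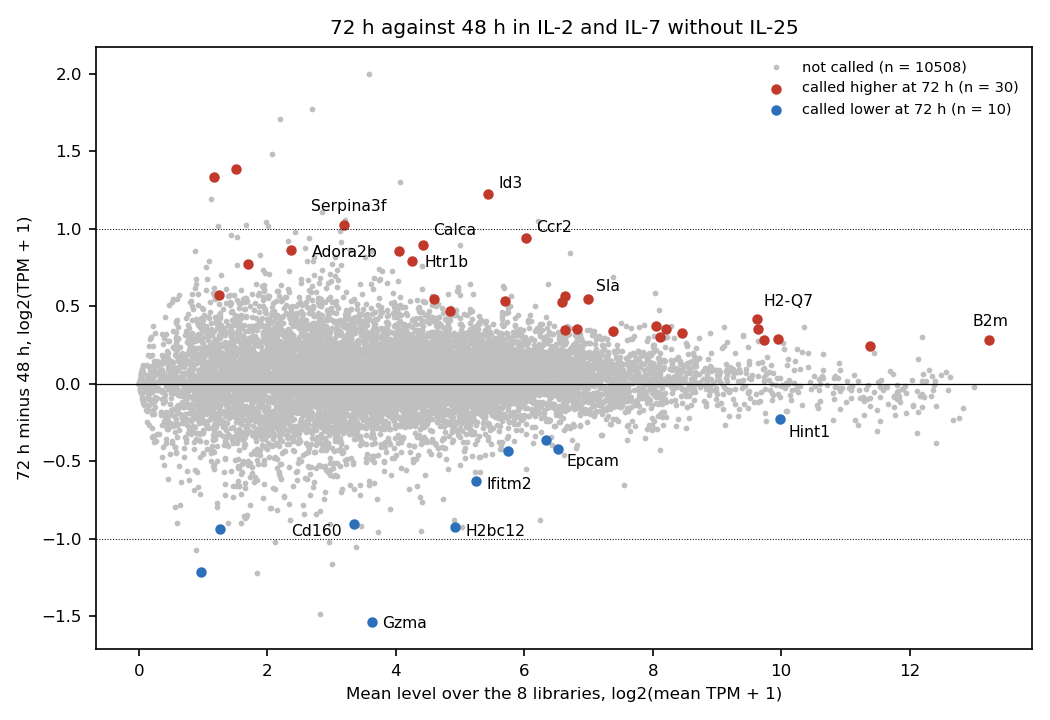
Difference between 72 h and 48 h without IL-25 for each of the 10548 genes tested, on the log2(TPM + 1) scale (y axis), against the mean level over the 8 libraries (x axis, log2). Red points are the 30 genes called higher, blue points the 10 called lower, grey points the genes not called, and dotted lines mark a 2-fold change on this scale. Most called genes lie within the dotted lines, and Id3 and Gzma lie outside them.

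The 8 libraries were alike in the measures that the table allows. Per library, the genes in the table added up to 873200 to 885074 TPM, between 9723 and 9941 genes reached 1 TPM, and the 10 most abundant genes took 7.33% to 8.496% of the listed total. Pearson correlations of log2(TPM + 1) were 0.984 to 0.987 within the 48 h group, 0.984 to 0.987 within the 72 h group and 0.980 to 0.986 over the 16 pairs of a 48 h and a 72 h library, against 0.877 to 0.893 between 48 h and 4 h. The depth of the libraries is unknown, since TPM keeps no read total. The labels do not say whether the 4 libraries of a group came from separate cultures, so the spread behind the p-values may be technical. In the main fit this spread was taken over all culture groups, not from the 8 libraries alone. The groups at 4 h and with IL-25 therefore contributed to it.

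The label of the cells was held against markers. The 13 ILC2 markers were Gata3, Rora, Il17rb, Il1rl1, Klrg1, Il7r, Kit, Thy1, Icos, Il5, Il13, Areg and Ptprc. All 13 reached 1 TPM in all 8 libraries, and 12 of them reached 10 TPM in all 8. None was called, beside 0.379% of all genes. Whether these genes set ILC2s apart from other lymphocytes was not tested. Of the B cell list 1 of 10 genes was listed (Cd79b), of the myeloid list 2 of 18 (Cd68 and Xcr1), of the mast cell, basophil and eosinophil list 1 of 13 (Ccr3, below 1 TPM in every library), of the stromal and endothelial list 2 of 10 (Pecam1 and Pdgfrb) and of the epithelial list 2 of 14 (Epcam and Krt18, the latter below 1 TPM in every library). Cd79b stood at 37.6 to 49.8 TPM, Cd68 at 0.49 to 3.51 TPM, Xcr1 at 2.27 to 5.65 TPM and Pecam1 at 11.9 to 19.5 TPM over the 8 libraries. Of the T cell list 6 of 14 genes were listed. Over the 8 libraries Cd3g stood at 80.1 to 125 TPM, Lat at 111 to 161 TPM, Zap70 at 164 to 224 TPM, Cd3e at 0.92 to 3.29 TPM and Foxp3 at 0.69 to 3.87 TPM. Cd247 stood at 4.48 to 8.68 TPM at 48 h and 2.94 to 3.60 TPM at 72 h, without overlap, and was not called. Of the ILC3 list 6 of 10 genes were listed and of the NK and ILC1 list 4 of 10, and Ncr1, held by both lists, stood at 0.17 to 3.75 TPM over the 8 libraries. The summed T cell list ranged from 393.0 to 487 TPM at 48 h and from 426 to 493 TPM at 72 h, so the groups overlapped. The summed globin and erythroid list (4 of 13 listed), most of it the alpha globin Hba-a1, ranged from 488 to 557 TPM at 48 h and from 640 to 802 TPM at 72 h and did not overlap, although none of its genes was called, and its part in the results was not tested. Of these lists only the epithelial one held a called gene, Epcam. A gene not listed may have been removed by the authors' unknown filter, so its absence from the listed genes is no measure of its level.

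The size of the change was bounded for most genes. The 95% interval of the difference lay within 1 log2 unit of no change for 10019 of the 10548 genes (95%) and within 0.5 log2 units for 5585 (52.9%). Among the 6060 genes with a mean of 10 TPM or more these counts were 5954 (98.3%) and 4358 (71.9%). The median difference over all genes tested was 0.05 on the log2 scale. In 643 genes (6.10%) the 4 libraries at 72 h did not overlap the 4 at 48 h, 431 of them (4.09%) higher at 72 h and 212 (2.01%) lower, and 29 of the 30 genes called higher and 9 of the 10 called lower were among them.

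**Figure D2:**
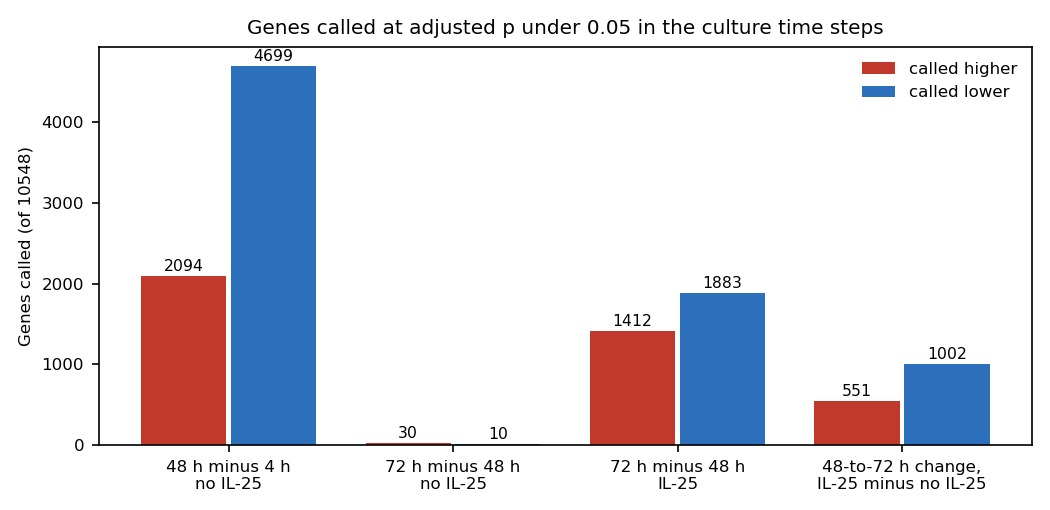
Genes called higher (red) and lower (blue) of the 10548 tested in 4 comparisons of the culture: 48 h minus 4 h without IL-25, 72 h minus 48 h without IL-25, 72 h minus 48 h with IL-25, and the difference between the last pair. The step from 48 h to 72 h without IL-25 gave 30 and 10 genes, against 2094 (19.9%) and 4699 (44.5%) for the step from 4 h to 48 h.

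The neighbouring steps of the culture moved many more genes. From 4 h to 48 h without IL-25, a comparison that shares the 48 h libraries, 6793 genes were called (64.4%), 2094 higher (19.9%) and 4699 lower (44.5%). From 48 h to 72 h with IL-25, 3295 genes were called (31.2%), 1412 higher (13.4%) and 1883 lower (17.9%). The test of the difference itself, the change with IL-25 minus the change without it, called 1553 genes (14.7%), 551 higher (5.22%) and 1002 lower (9.50%), and its split turned to 865 higher and 605 lower after rescaling by the median of ratios and to 748 and 652 after quantile normalization. Among genes that met the limits of the naming rule on level and overlap, the change was more positive with IL-25 than without for Tnfrsf9, a costimulatory receptor, at 3.06, Gzma at 2.95, Isg20 at 2.79, Pvrig at 2.62 and Rgs11 at 2.56 on the log2 scale. It was more negative for the cytokine Il24 at -2.12, the homing receptor Ccr7 at -2.06, Pdzk1ip1 at -1.87, Serpine2 at -1.82 and Zbtb32 at -1.82.

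Id3 is a target of TGF-beta and antigen receptor signals in lymphocytes. Its levels were 26.2, 29.1, 20.5 and 23.9 TPM at 48 h and 62.0, 55.8, 55.3 and 64.2 TPM at 72 h. Every library at 72 h lay above every library at 48 h, and the difference was 1.22 ± 0.18 on the log2 scale (SE, n = 4 and 4, limma adjusted p = 0.0034). At 4 h its mean was 0.29 TPM, so the gene was already far higher at 48 h (difference 4.32 on the log2 scale). With IL-25 the step from 48 h to 72 h was 1.43, and the test of the difference between the arms gave 0.20 (limma adjusted p = 0.69). With a pseudocount of 0.1 TPM in place of 1 TPM the call was lost (adjusted p = 0.28). Id3 lies on chromosome 4 (136143822 to 136145392, GRCm38.p6), and 200 bases of its RefSeq promoter, from position -250 to -51 of the start, are shown because Id3 was called in each of the 8 fits that left out a library and in the fit of the 8 libraries alone. Capitals mark the letters of the cell cycle CHR motif.
Id3, chr4:136143572-136143771, plus strand: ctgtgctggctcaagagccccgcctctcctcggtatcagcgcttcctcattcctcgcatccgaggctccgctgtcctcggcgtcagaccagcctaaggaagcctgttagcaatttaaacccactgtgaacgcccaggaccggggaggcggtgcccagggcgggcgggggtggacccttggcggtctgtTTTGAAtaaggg

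Class I antigen presentation genes rose by small amounts from high levels. B2m, the invariant chain of every class I molecule, was at 9274, 8905, 8262 and 8585 TPM at 48 h and at 11359, 10518, 10264 and 10381 TPM at 72 h. These groups did not overlap, and the difference was 0.28 ± 0.05 on the log2 scale (SE, limma adjusted p = 0.0097). H2-Q7, a nonclassical class I heavy chain, was at 677, 650, 700.2 and 665 TPM at 48 h and at 899, 1061, 827 and 832 TPM at 72 h, again without overlap (0.42 ± 0.07, limma adjusted p = 0.0071). H2-D1, a classical heavy chain, was at 2381, 2370, 2614 and 2362 TPM and then at 2777, 3197, 2671 and 2893 TPM (0.24 ± 0.05, adjusted p = 0.029). H2-K1, the other classical heavy chain, did not pass (0.30, limma adjusted p = 0.057) although its groups did not overlap. Of the 20 antigen processing genes tested, these 3 were called higher (0.284% of all genes) and none lower (0.0948%). A positive difference was seen in 17, with a median of 0.14 beside 0.05 over all genes. Since the median over all genes was itself positive, most genes had a positive difference.

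The class I calls depended on the scaling. B2m fell short of the threshold without the mean-variance trend, in the fit of the 8 libraries alone, after rescaling by the median of ratios and after quantile normalization, where its difference was 0.07. None of the 20 antigen processing genes was called after rescaling by the median of ratios, where 50 of the 10548 genes tested were called. Summed over the list, the 48 h libraries held 19438 to 19961 TPM and the 72 h libraries 23080 to 24940 TPM. The 72 h library with the highest sum, replicate 2, also had the highest sum of the interferon response genes, 4182 TPM against 2496 to 2669 TPM in the other 72 h libraries. Of these Ifi47, an interferon-induced GTPase, stood at 451 TPM there against 288 to 293 TPM in the others. Without that library the median difference of the 39 interferon response genes tested, none of them called, went from 0.14 to 0.02. B2m and H2-Q7 were called whichever of the 8 libraries was left out, and H2-D1 kept its call in 3 of these 8 fits. The part of that library in the class I rise was not tested.

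B2m lies on chromosome 2 (122147687 to 122153082) and overlaps Patl2, while H2-D1 (35263094 to 35267497) and H2-Q7 (35439140 to 35443773) lie on chromosome 17. H2-D1 and H2-Q7 are near-identical copies in parts, so the split of reads between them is uncertain. The promoters are shown to let the shared stretch be seen, from RefSeq with GRCm38.p6 and from position -250 to -51 of the start in the promoter table, which for H2-Q7 is not the gene start given above. Capitals mark the core of the interferon-stimulated response element in B2m and the longest run, 21 bases, that H2-D1 and H2-Q7 share.
B2m, chr2:122147437-122147636, plus strand: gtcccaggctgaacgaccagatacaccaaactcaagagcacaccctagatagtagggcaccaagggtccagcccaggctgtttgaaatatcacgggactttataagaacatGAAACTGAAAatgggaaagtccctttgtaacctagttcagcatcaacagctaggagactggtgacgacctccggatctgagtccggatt
H2-D1, chr17:35262844-35263043, plus strand: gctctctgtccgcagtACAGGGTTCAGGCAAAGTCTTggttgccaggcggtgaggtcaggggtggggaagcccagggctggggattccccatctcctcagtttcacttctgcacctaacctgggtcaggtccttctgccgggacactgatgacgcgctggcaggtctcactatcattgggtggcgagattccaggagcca
H2-Q7, chr17:35438905-35439104, plus strand: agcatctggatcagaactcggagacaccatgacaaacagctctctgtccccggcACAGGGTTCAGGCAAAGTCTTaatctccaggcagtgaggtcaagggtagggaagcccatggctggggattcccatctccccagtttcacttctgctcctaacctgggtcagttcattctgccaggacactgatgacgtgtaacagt

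A promoter was matched for 33 of the 40 called genes and 8506 of all genes tested. On either strand the interferon-stimulated response element core was in 2 of 24 promoters of genes called higher and 3 of 9 of genes called lower, against 3.86% of all. The STAT letters (TTCNNNGAA) were in 5 of 24 and 1 of 9, against 8.38%, and the CHR letters (TTTGAA) in 8 of 24 and 5 of 9, against 14.5%. The AP-1 letters (TGANTCA) were in 1 of 24 and 1 of 9 (5.82% of all), the CRE letters (TGACGTCA) in 1 of 24 and 0 of 9 (3.84%) and the E-box letters (CACGTG) in 3 of 24 and 2 of 9 (12.2%). These matches describe letters in a window and were not tested.

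Several receptors were among the genes that rose. Ccr2, the receptor for the chemokine CCL2, was at 33.4, 45.2, 51.4 and 43.7 TPM at 48 h and at 76.0, 64.0, 94.7 and 104 TPM at 72 h. The groups did not overlap and the difference was 0.94 ± 0.19 (SE, limma adjusted p = 0.022). It was the 1 called gene of 22 chemokine receptor, homing and egress genes (0.379% of all genes), whose median was 0.11. Htr1b, a serotonin receptor, was at 11.7, 13.9, 11.7 and 14.3 TPM and then at 21.8, 22.2, 23.7 and 24.6 TPM, without overlap (0.79 ± 0.14, limma adjusted p = 0.011), and rose more with IL-25 (difference between the arms 0.68, adjusted p = 0.026). Adora2b, a receptor for extracellular adenosine, was at 12.9, 10.2, 9.62 and 10.2 TPM and then at 25.7, 17.4, 17.1 and 21.3 TPM (0.86, limma adjusted p = 0.045). F2r, the thrombin receptor PAR1, rose by 0.53. Adora2b and Cd160 lost their calls whichever of the 8 libraries was left out, and Ccr2 kept its call in 3 of these 8 fits.

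**Figure D3:**
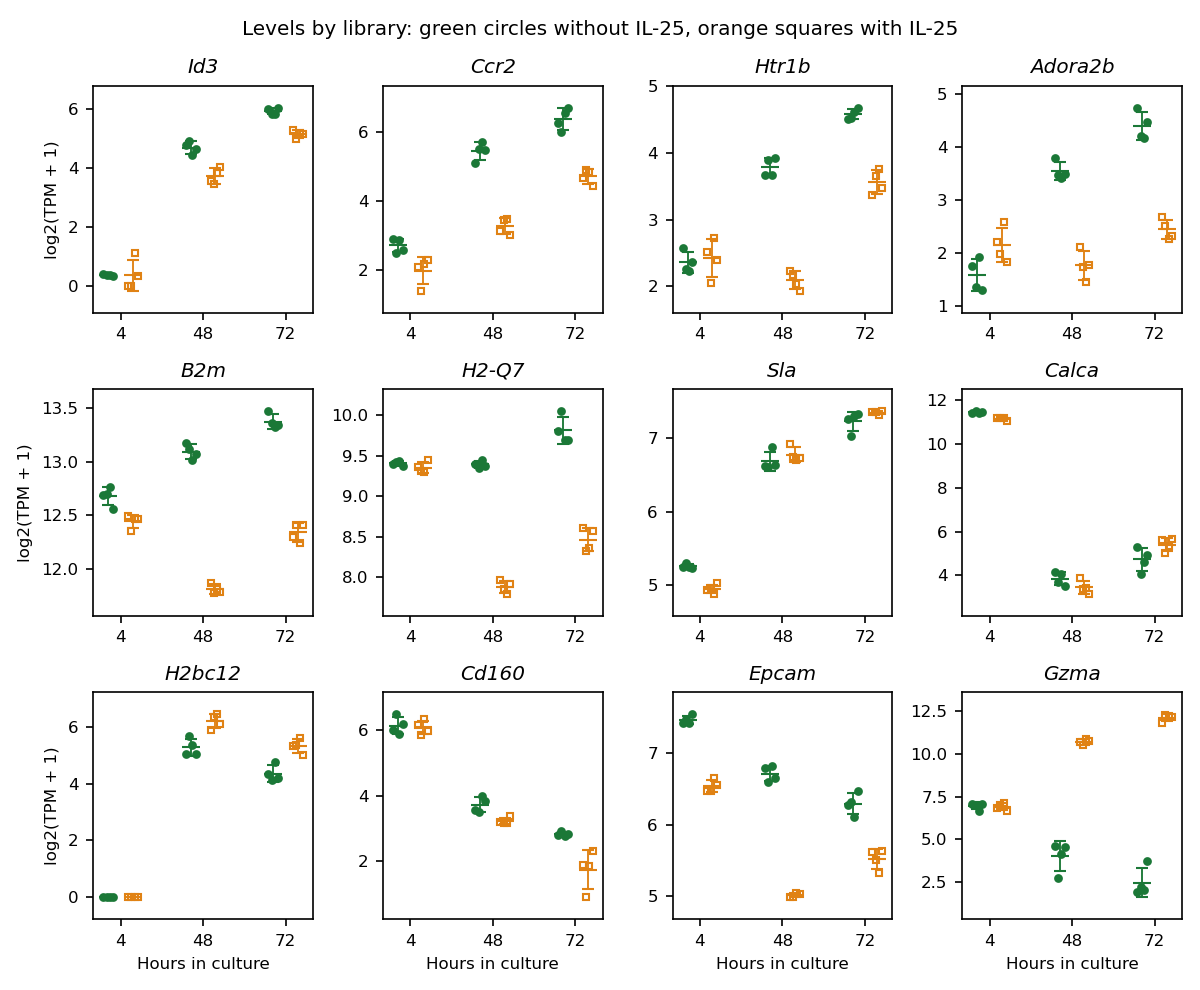
Levels of 12 called genes on the log2(TPM + 1) scale (y axis, its range set per gene) by hours in culture (x axis), 1 point per library, without IL-25 (filled green circles) and with IL-25 (open orange squares). Horizontal bars are means of 4 libraries with SD. Without IL-25, Id3, Ccr2, Htr1b and Adora2b are higher at 72 h than at 48 h in all 4 libraries, and Gzma is at 2.80 to 12.45 TPM at 72 h against 5.70 to 23.8 TPM at 48 h.

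Calca encodes the neuropeptide CGRP, which ILC2s make. It had fallen from a mean of 2785 TPM at 4 h to 16.8, 11.8, 15.6 and 10.5 TPM at 48 h, and stood at 38.9, 15.9, 23.8 and 30.0 TPM at 72 h. The groups overlapped in 1 library, and the difference was 0.89 ± 0.19 (SE, limma adjusted p = 0.032). Its rise with IL-25 was larger, by 1.05 (adjusted p = 0.0084). Calca was the 1 called gene of 18 type 2 effector genes (0.379% of all genes), whose median was 0.10.

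The remaining genes that rose were spread over signalling, membranes and vesicles. Sla, an adaptor that dampens antigen receptor signalling, was at 97.3, 96.6, 116 and 98.1 TPM at 48 h and at 152, 130.0, 156 and 160.0 TPM at 72 h, without overlap (0.55 ± 0.07, limma adjusted p = 0.0011). Its locus overlaps Tg and was called without any single library. Map1lc3b, a protein of autophagosome membranes, was at 236 to 269 TPM and then at 299 to 311 TPM (0.30). It was the 1 called gene of 32 lysosome and autophagy genes (0.379% of all genes), whose median was 0.16. Rraga, a GTPase that brings mTORC1 to lysosomes, rose by 0.47, and Psen2, a catalytic subunit of gamma-secretase, by 0.57. S100a10, the partner of annexin A2, rose by 0.29. It was the 1 called gene of 15 S100, galectin and annexin genes (0.379% of all genes), whose median was 0.18. Degs1, the enzyme that makes ceramide from dihydroceramide, rose by 0.35, Slc44a2, a choline transporter, by 0.53, Cbr1, a carbonyl reductase, by 0.55, and Rabac1, a Rab-binding membrane protein, by 0.38. Shisa5 rose by 0.36 and Serpina3f, a serine protease inhibitor of a family of near-identical copies whose counts are uncertain, by 1.02.

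The naming rule left out several called genes, which are named here after their values were seen. Tmem50a (0.33), Arl6ip5 (0.34), AI467606 (0.34), Gimap6 (0.35) and Fxyd5 (0.29) rose from levels of 85 TPM or more. Kctd17 (0.87), B3galt2 (0.77) and Plcb1 (0.57) were below 7 TPM in every library. Ccdc142 was at 0.14 to 0.90 TPM at 48 h and 1.29 to 6.14 TPM at 72 h (1.39), and Il4i1, an amino acid oxidase gene, was at 0.00 to 0.76 TPM and then at 1.38 to 3.02 TPM (1.34). Both overlap a neighbouring gene, so reads from their partners cannot be told apart. At the lower end Fkbp11 (-0.94) and Gca (-1.21) were below 4 TPM in every library. Of the 40 called genes, 16 overlapped another annotated gene.

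Gzma, a serine protease of cytotoxic granules, was at 23.8, 5.70, 16.9 and 22.7 TPM at 48 h and at 2.80, 3.69, 3.14 and 12.45 TPM at 72 h. The groups overlapped, since 1 library at 48 h lay below 1 library at 72 h, and the difference was -1.54 ± 0.32 (SE, limma adjusted p = 0.029). The call held in 2 of the 8 fits that left out a library. With IL-25 Gzma rose over the same time (1.41), and the arms differed by 2.95 (limma adjusted p = 5.7e-05). Gzma was the 1 called gene of 11 granzyme and cytotoxic granule genes (0.379% of all genes). Among 22 inhibitory and costimulatory receptors only Cd160 was called (0.379% of all genes). The median of this list was 0.14, and 16 of the 22 had a positive difference. Cd160, a receptor for HVEM, was at 10.8, 10.3, 14.95 and 13.1 TPM and then at 5.93, 6.48, 5.76 and 6.02 TPM, without overlap (-0.90, adjusted p = 0.045).

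Epcam and Ifitm2 fell without IL-25 and rose with it. Epcam, a cell adhesion molecule best known from epithelium, was at 109.7, 95.6, 113 and 99.9 TPM at 48 h and at 76.7, 79.1, 68.0 and 87.8 TPM at 72 h, without overlap (-0.42 ± 0.08 SE, limma adjusted p = 0.018). Of the other 13 epithelial markers, Krt18 was below 1 TPM and the rest were not listed. The authors' filter is unknown, so a gene not listed cannot be taken as absent. The arms differed by 0.93 for Epcam (limma adjusted p = 3.1e-06). Ifitm2, an interferon-induced membrane protein with close paralogs, was at 33.8, 45.7, 53.4 and 48.8 TPM and then at 33.5, 29.1, 24.1 and 28.9 TPM (-0.62, adjusted p = 0.011), and its arms differed by 1.43. In bulk RNA a lower share of cells with a transcript and less of it per cell cannot be told apart.

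Of the 30 genes that rose without IL-25, 22 were also called higher from 48 h to 72 h with IL-25 (13.4% of all genes) and none lower (17.9% of all genes). In the test of the difference 6 of the 30 were higher with IL-25, 6 were lower and 18 were not called, beside 14.7% of all genes called. The 6 with a smaller change under IL-25 were Ccdc142, Il4i1, Kctd17, Plcb1, Psen2 and Cbr1, and the 6 with a larger one were Calca, Htr1b, Fxyd5, Arl6ip5, H2-D1 and B2m. Of the 10 genes that fell, 5 were called lower (17.9% of all genes) and 3 higher (13.4%) with IL-25, and 4 (Gzma, Ifitm2, Gca and Epcam) differed between the arms. All these genes were chosen by their change without IL-25, which the test of the difference subtracts. Counts of that test among them are partly set by this choice and cannot be weighed against the share of all genes.

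The other named genes that fell were H2bc12, Nasp, Pold2 and Hint1. H2bc12, a replication-dependent histone H2B gene, was listed at 0 in all 4 libraries at 4 h. It was at 32.3, 50.4, 39.9 and 32.3 TPM at 48 h and at 19.2, 16.4, 26.45 and 17.5 TPM at 72 h, without overlap (-0.93 ± 0.16 SE, limma adjusted p = 0.0097). Nasp, a histone chaperone, was at 66.2, 56.5, 65.9 and 55.4 TPM and then at 48.6, 39.99, 43.6 and 46.8 TPM (-0.44, limma adjusted p = 0.040). Pold2, a subunit of DNA polymerase delta, was at 96.7, 92.1, 90.3 and 82.4 TPM and then at 69.8, 78.9, 60.4 and 71.3 TPM (-0.37, adjusted p = 0.038). Hint1, a nucleotide hydrolase, fell by 0.23. Histone genes, looked at after H2bc12 was seen, numbered 40 tested, of which 33 had a negative difference. H2bc12 alone was called (0.379% of all genes), and the median was -0.41 beside 0.05 over all genes. Histone genes are close copies and mostly lack a poly(A) tail, so their levels here are uncertain.

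Of 37 gene lists 28 held no called gene. With 0.379% of all genes called, a list without a called gene is no sign that its genes were steady. The DNA replication genes had the lowest median. None of its 36 genes was called, 34 had a negative difference, and 9 were lower at 72 h without overlap (2.01% of all genes) and none higher (4.09% of all genes). The median was -0.26 beside 0.05 over all genes. Summed over the list, the 48 h libraries held 3438 to 4108 TPM and the 72 h libraries 2902 to 3224 TPM. Pcna, the sliding clamp of the replication fork, was at 286, 252, 267 and 247 TPM and then at 235, 189, 194 and 206 TPM, without overlap but just outside the threshold (-0.35, adjusted p = 0.058). After either of the other scalings 5 members were called, where 50 (median of ratios) and 86 (quantile normalization) of the 10548 genes tested were called. From 4 h to 48 h all 36 were called higher (19.9% of all genes), and with IL-25 26 of the 36 were called lower from 48 h to 72 h (17.9% of all genes). In the test of the difference 4 were lower, a share near the 9.50% of all genes.

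**Figure D4:**
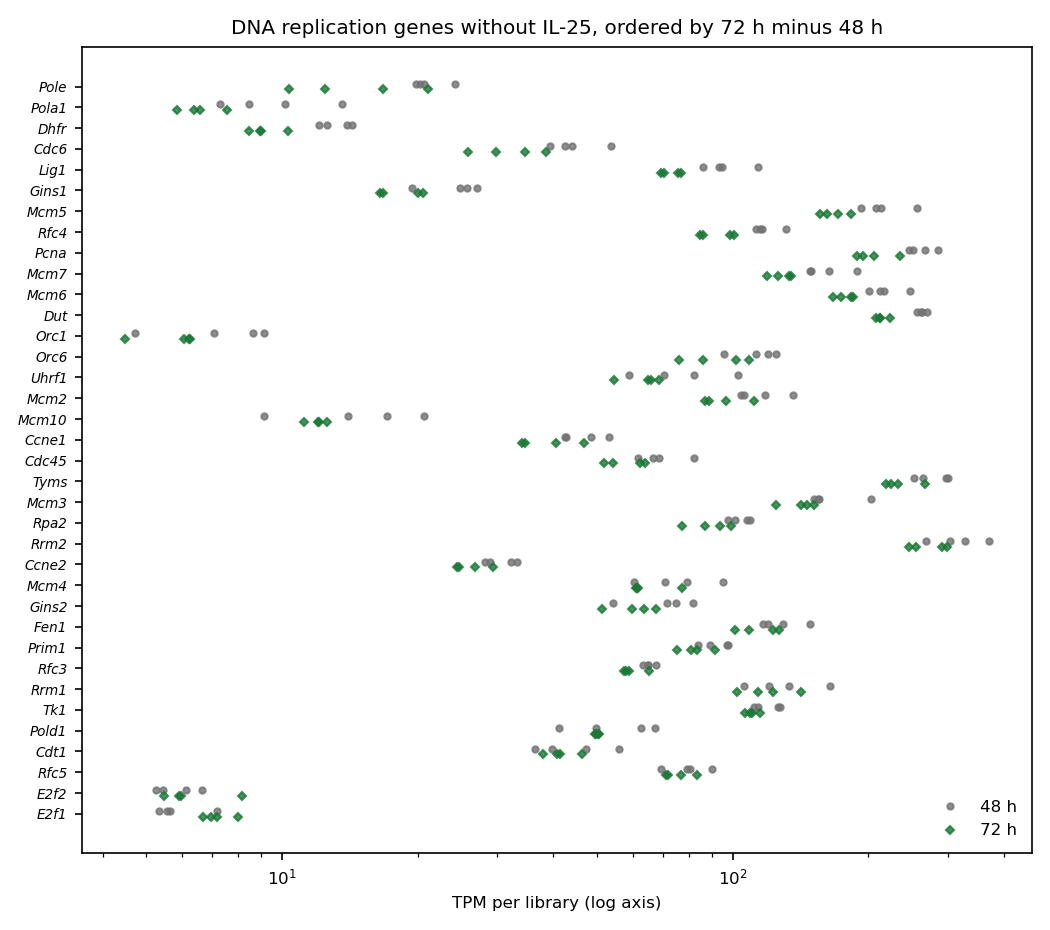
Levels of the 36 DNA replication genes without IL-25, in TPM per library on a log axis, at 48 h (grey circles) and 72 h (green diamonds), ordered from the largest negative difference at the top. The 34 genes with a negative difference fill all but the lowest 2 lines, and the groups overlap for most genes.

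None of the 38 mitosis genes was called (0.379% of all genes) and none had an unadjusted p under 0.05. The median of the list was 0.10. Its sum was 2079 TPM in replicate 1 at 48 h and 3413 to 3907 TPM in the other libraries at 48 h, against 3212 to 3585 TPM at 72 h. Ube2c, an enzyme of the anaphase machinery, was at 191, 455, 468 and 432 TPM at 48 h, with replicate 1 low, and at 379, 447, 449 and 442 TPM at 72 h. Without replicate 1 at 48 h the median of the list turned to -0.12. The cell cycle restraint and quiescence genes had the highest median, 0.25 over 19 genes, with none called.

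**Figure D5:**
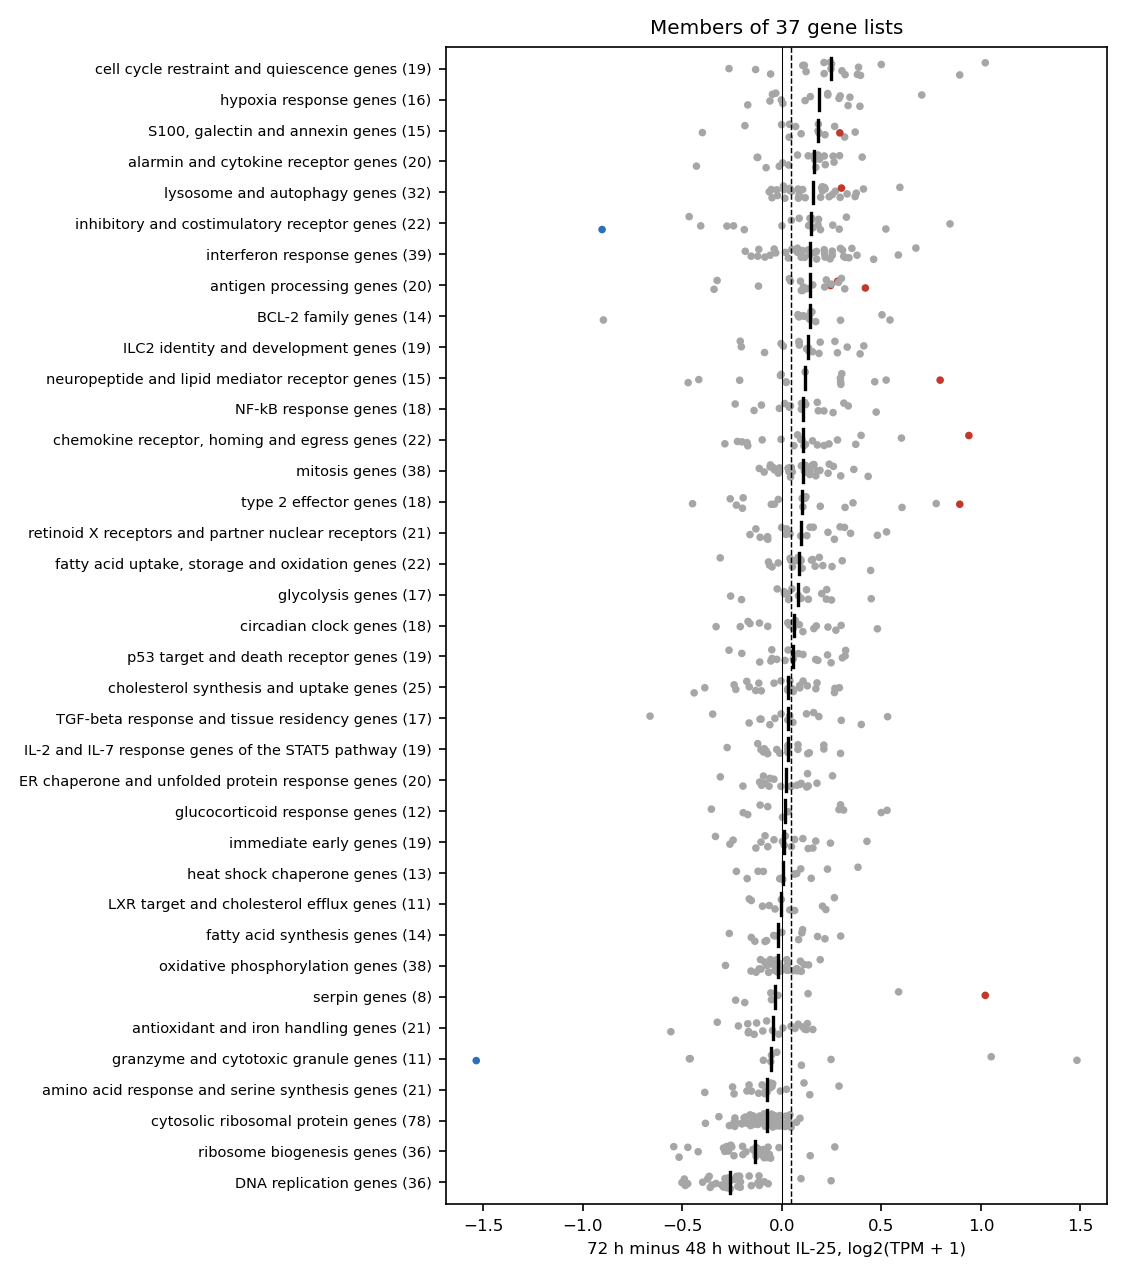
Difference between 72 h and 48 h without IL-25 (x axis, log2(TPM + 1)) for the members of 37 gene lists (rows, number of genes tested in brackets). Each point is 1 gene, red if called higher and blue if called lower, black bars are list medians, and the dashed line is the median of all genes tested, 0.05. List medians run from -0.26 for DNA replication genes to 0.25 for cell cycle restraint and quiescence genes.

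The protein synthesis and metabolism lists held no called gene, where 0.379% of all genes were called. Of 36 ribosome biogenesis genes none was called and 34 had a negative difference (median -0.13), among them Ncl, a nucleolar protein, at 245, 278, 302 and 251 TPM and then at 207, 225, 222 and 236 TPM (-0.27, adjusted p = 0.070). With IL-25, 35 of the 36 were called lower over the same time (17.9% of all genes), and 25 were lower in the test of the difference (9.50% of all genes). The 78 cytosolic ribosomal protein genes had a median of -0.08 with none called. Glycolysis genes had a median of 0.08 and none of 17 called, and 15 of the 17 were higher in the test of the difference, beside 5.22% of all genes. Gapdh, for example, differed by 0.08 without IL-25 (interval -0.03 to 0.19), and the arms differed by 0.37. Hypoxia response genes (median 0.19, 0 of 16 called) were higher in 11 of 16 in that test. Oxidative phosphorylation genes (median -0.02, 0 of 38 called) were lower in 13, beside 9.50% of all genes, and cholesterol synthesis and uptake genes (median 0.03, 0 of 25 called) were higher in 5, beside 5.22%.

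The genes of ILC2 identity did not pass the test. Gata3, the transcription factor that defines ILC2s, was at 703, 644, 803 and 742 TPM at 48 h and at 793, 901, 832 and 982 TPM at 72 h, with overlap in 1 library (0.28, 95% interval 0.12 to 0.43, limma adjusted p = 0.11). Its change with IL-25 was larger by 0.55 (adjusted p = 0.00078). Rora, a nuclear receptor needed for ILC2 development, differed by 0.09 (interval -0.15 to 0.32) and Klrg1, an inhibitory receptor, by 0.09 (interval -0.01 to 0.19). Rxrg, the retinoid X receptor studied in this series, was at 44.6, 50.8, 63.2 and 53.8 TPM and then at 41.0, 57.6, 54.9 and 47.9 TPM, fully overlapping (-0.08, interval -0.50 to 0.35, adjusted p = 0.93). None of 19 ILC2 identity genes was called (median 0.13), beside 0.379% of all genes.

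Cytokine receptors did not pass either. Il17rb, the IL-25 receptor subunit, was at 107, 122, 145 and 121 TPM at 48 h and at 128, 147, 146 and 142 TPM at 72 h, overlapping (0.19, interval 0.00 to 0.38, limma adjusted p = 0.43). With IL-25 its change was lower by 0.72 (adjusted p = 0.00030). Il1rl1, the IL-33 receptor, differed by -0.08 (interval -0.31 to 0.15), Il7r by 0.16 (interval -0.21 to 0.53) and Il2ra by -0.12 (interval -0.33 to 0.09). Relative to these, the change with IL-25 was higher by 0.60 for Il1rl1 and lower by 1.25 for Il7r and by 0.50 for Il2ra. None of 20 alarmin and cytokine receptor genes and none of 19 STAT5 pathway genes of the IL-2 and IL-7 response was called. Over all genes 0.379% were called.

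Of the cytokines, Il13 was at 23.1, 24.3, 24.5 and 23.7 TPM at 48 h and at 32.0, 33.5, 25.03 and 34.05 TPM at 72 h. The groups did not overlap, and the difference did not pass the test (0.36, interval 0.14 to 0.58, limma adjusted p = 0.15). Il5 was at 199, 191, 169 and 191 TPM and then at 243, 153, 171 and 258 TPM, with wide overlap (0.11, interval -0.19 to 0.40). Areg, an epidermal growth factor family ligand, differed by 0.19 (interval -0.23 to 0.62), and its change with IL-25 was larger by 1.16 (adjusted p = 0.0070). Il9 was at 1.37 to 3.64 TPM at 48 h and 1.24 to 3.72 TPM at 72 h, after a mean of 513 TPM at 4 h, and its interval of -1.01 to 0.97 was wide.

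The threshold itself was crowded. Just inside it lay Fkbp11, AI467606 and Hint1 (each with an adjusted p of 0.047), and just outside lay Cdca7 (-0.38, adjusted p = 0.050), Mctp1 (1.02), Leprotl1 (0.30), Serpina3g (0.59) and H2-K1 (0.30), the last 4 at an adjusted p of 0.057. In all, 1226 genes had an unadjusted p under 0.05.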

How the data were processed

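The authors deposited a table of TPM values per gene for 24 culture libraries, in 6 groups of 4. The submitters' processing notes name RSEM 1.3.3, STAR 2.7.5c, cutadapt 2.10 and mm10, without their roles, and the authors' filter on genes was not given in the sources used here. The 10799 listed genes sum to less than the fixed TPM total per library, so a change in unlisted transcripts can shift the values of all others. Depth is not recoverable from TPM.

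Groups were taken from titles and treatment labels. limma 3.58.1 in R 4.3.3 (lmFit, eBayes with trend) was fitted to log2(TPM + 1) over all 24 libraries with 1 mean per group and 18 residual degrees of freedom. A gene was tested where 4 or more libraries reached 1 TPM. Fold changes on this scale understate the changes of low genes. All differences given for genes and lists are on this scale, and adjustment of p-values (Benjamini-Hochberg) ran over every gene tested. The fit was tested on simulated data. The comparison, the gene lists and the tests were chosen with earlier results of these data known.

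Named genes were 12 key genes, up to 15 called genes in each direction with at least 10 TPM in the higher group and no overlap, called members of each list or else its 2 most abundant genes, and the interaction genes by the same rule. One gene that this rule names is not reported here. The labels do not say whether replicate numbers mark a shared source, and the main fit did not pair the libraries by them. Alternatives were the pseudocount (0.1), the filter on low values (none, or 5 TPM), 2 other scalings, a fit of the compared groups alone, library weights, a replicate block, no trend and each library left out. The tables for nILC2 and iILC2 and the chromatin samples were not used here.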

Additional observations from a re-analysis of the deposited data

Results flagged for a closer look

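In groups of 4 libraries, a library was set apart when its gap to the nearest took up more of the group's range than Dixon's 95% critical value allows. This held in 14 of 208 groups examined (6.73%), where chance gives about 1 in 20. At 48 h the libraries apart were at 12.9 TPM for Adora2b, 2614 TPM for H2-D1, 623 TPM for Shisa5, 116 TPM for Sla, 896 TPM for Id2, 191 TPM for Ube2c, 119 TPM for Hadhb and 85.8 TPM for Nr1h2. At 72 h they were at 12.45 TPM for Gzma, 162 TPM for Il2rb, 386 TPM for Ltb, 451 TPM for Ifi47, 379 TPM for Ube2c and 148 TPM for Elovl1. The values for Ifi47 and Ltb came from 1 library, replicate 2 at 72 h. The libraries apart for Gzma at 72 h and Adora2b at 48 h lay toward the values of the other time. Each made the difference between the times smaller. Gzma kept its call in 2 of the 8 fits that left out a library and Adora2b in 0.

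The change from 48 h to 72 h differed between the arms (IL-25 minus none, log2 scale, limma interaction, adjusted p under 0.05) for 32 of the genes named. It was larger with IL-25 for Tnfrsf9 (3.06), Gzma (2.95), Isg20 (2.79), Pvrig (2.62), Rgs11 (2.56), Ifitm2 (1.43), Gca (1.21), Areg (1.16), Calca (1.05), Epcam (0.93), Fxyd5 (0.70), Htr1b (0.68), Arl6ip5 (0.62), Il1rl1 (0.60), Gata3 (0.55), H2-D1 (0.36) and B2m (0.25). It was smaller for Il9 (-2.13), Il24 (-2.12), Ccr7 (-2.06), Pdzk1ip1 (-1.87), Serpine2 (-1.82), Zbtb32 (-1.82), Il4i1 (-1.32), Ccdc142 (-1.27), Il7r (-1.25), Kctd17 (-0.89), Il17rb (-0.72), Plcb1 (-0.63), Cbr1 (-0.61), Psen2 (-0.56) and Il2ra (-0.50). Tnfrsf9, Gzma, Isg20, Pvrig, Rgs11, Il24, Ccr7, Pdzk1ip1, Serpine2 and Zbtb32 were named because they passed this same test. Genes called without IL-25 were chosen by a change that the test subtracts. The count of 32 therefore cannot be weighed against the 14.7% of all genes called.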

How the results depend on the processing

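The 40 genes called kept their sign in every fit in which they were tested. None of them was called under all 9 settings other than leaving out a library, and 8 were called under 8 of the 9. Genes called numbered 26 with a pseudocount of 0.1 TPM (25 of the 40) and 86 after quantile normalization (38 of the 40). The count was 64 with library weights (38 of the 40) and 23 without the mean-variance trend (19 of the 40). It was 1 (Id3) when the 8 libraries were fitted alone. Leaving out 1 library gave 11 genes (without 72 h replicate 3) to 49 (without 48 h replicate 3). Of the 40, between 11 and 29 were still called in these 8 fits, and 7 (B2m, H2-Q7, Id3, Map1lc3b, Rabac1, Sla and Tmem50a) in all 8. The 6 genes called at least 2-fold became 3 under the filter of 5 TPM, 1 in the fit of the 8 libraries alone and 3 to 6 when 1 library was left out. After rescaling by the median of ratios 50 genes were called, 24 of the 40 among them. The count for the difference between the arms ranged from 1314 to 1701. Deviations of same-numbered libraries at 48 h and 72 h correlated at 0.15, -0.03, 0.02 and 0.06, against -0.13 to 0.08 for other pairs. Whether the numbers mark a shared source is not given by the labels. With the replicate block 45 genes were called, 34 of the 40 among them, and 1527 for the difference between the arms. The cause of these differences was not tested. The depth behind each value is unknown, so no counting error could be given, and low genes such as Gca, Il4i1 and Ccdc142 are the least certain.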

Other observations

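Some genes at the edges of their lists differed by more than 0.5 on the log2 scale and were not called. They were picked from the ends of each list after their values were seen. Gzmc, a granzyme, differed by 1.48, Cdkn2b, an inhibitor of cyclin-dependent kinases, by 1.02, Cd200r3 by 0.84, Ndrg1, a hypoxia-induced gene, by 0.70 and Oasl2, an interferon-induced gene, by 0.67. Ulk1, a kinase that starts autophagy, differed by 0.59. At the other end stood Bmf, a proapoptotic BCL-2 family member, at -0.90, Cyp1a1, a target of the aryl hydrocarbon receptor, at -0.66, Hmox1, the enzyme that breaks down heme, at -0.56 and Utp20, a protein of ribosome assembly, at -0.54. None of these values passed the test.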
